A study of Drosophila melanogaster with 2 samples.

Results

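The regions described here are 793 of the 3421 places where GFP-tagged Spalt major (Salm) was mapped reproducibly on the chromatin of Drosophila melanogaster embryos. They are the peaks whose summit, the position of strongest enrichment, lay over 500 bp and at most 2000 bp from the nearest annotated transcription start site (TSS) of any gene. They are called band summits below. Of the other peaks, 1605 had a summit within 500 bp of a TSS and 1023 had one farther than 2000 bp away. The rule used position alone and no measured strength.

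The study mapped Salm by ChIP-seq in 2 biological replicates of whole embryos aged 0 to 16 h. Both came from a transgenic line that stably expresses salm with GFP joined to its C-terminal end, and an antibody against GFP was used for the precipitation. There was 1 group, with no second genotype, stage or treatment, so no difference between conditions was tested. Every value averages over all embryonic tissues and over the whole 0 to 16 h collection, and the tagged protein came from a single transgenic line.

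Salm is a zinc finger transcription factor of the Spalt family. In the fly embryo it is known for roles in the head and tail regions, the tracheal system, the oenocytes and sensory organs. In mammals, zinc fingers of the family member SALL4 are known to bind A/T-rich DNA. The stretch on either side of a fly promoter, and above all the first intron, is a common place for enhancers, which act on a promoter from a distance. Fly promoters themselves often carry words for factors such as DREF and M1BP, so a summit near a promoter and one a kilobase away can lie in different kinds of sequence.

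The sequences below are 81 bp of the plus strand of Release 6 (dm6), read 5′ to 3′ and centred on band summits, with runs of at least 6 A or T in capitals. The first 5 are shown because they are among the strongest summits and hold A/T runs, which were denser at band summits than in their flanks. They are an intron of ush 1401 bp upstream of cbt (chr2L:481049-481129), an intron of CG11050 (chr2L:6612679-6612759), an intron of Trl (chr3L:14759474-14759554), an intron of Dok (chrX:7324993-7325073) and an intron of simj (chr3L:10665754-10665834).
cbt: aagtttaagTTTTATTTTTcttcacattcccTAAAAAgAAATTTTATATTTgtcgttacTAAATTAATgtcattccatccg
CG11050: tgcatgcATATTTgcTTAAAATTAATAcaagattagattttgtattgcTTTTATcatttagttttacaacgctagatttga
Trl: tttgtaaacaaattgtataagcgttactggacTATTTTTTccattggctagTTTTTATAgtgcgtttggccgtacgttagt
Dok: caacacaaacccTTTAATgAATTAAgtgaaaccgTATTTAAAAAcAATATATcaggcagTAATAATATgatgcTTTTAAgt
simj: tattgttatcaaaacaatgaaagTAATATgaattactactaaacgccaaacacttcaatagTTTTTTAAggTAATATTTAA
The next window lies 300 bp before the simj summit in coordinates (chr3L:10665454-10665534) and is shown because flanks more often held GA repeats. Here the capitals mark stretches of overlapping GAGAG or its reverse complement.
simj flank: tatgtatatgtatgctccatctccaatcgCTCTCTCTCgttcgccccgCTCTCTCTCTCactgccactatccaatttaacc
The last window, upstream of jp (chr2L:9567459-9567539), is shown as an exception. It holds no A/T run of 6 or more although its peak ranks among the 25 strongest band summits.
jp: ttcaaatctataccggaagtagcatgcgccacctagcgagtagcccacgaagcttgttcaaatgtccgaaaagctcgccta

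**Figure D1:**
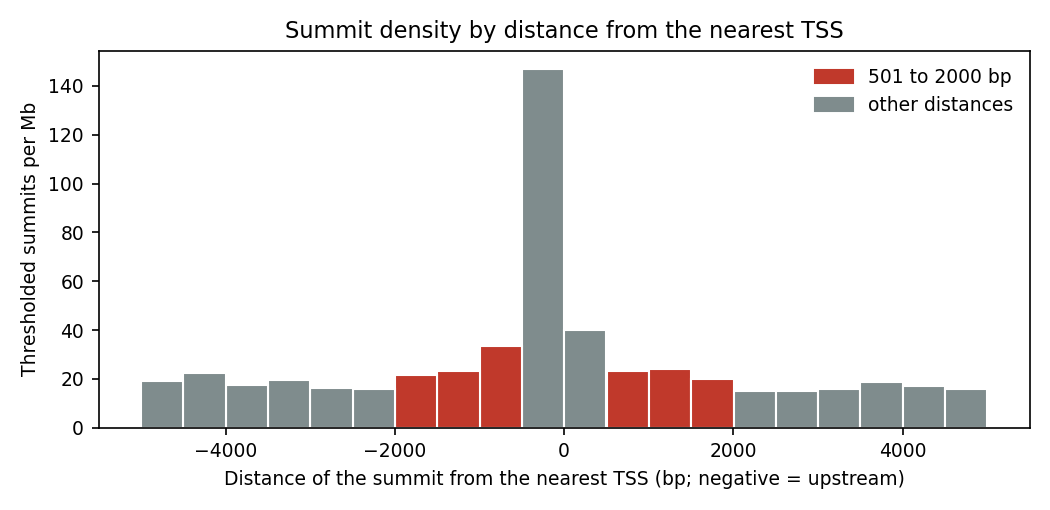
Density of Salm summits (per Mb of sequence at each distance, y axis) against signed distance from the nearest TSS in bp (x axis, negative upstream) in steps of 500 bp, with the band in red and other distances in grey. Within 500 bp the density was 147 per Mb upstream and 40 per Mb downstream, and it fell off across the band, to 20.6 per Mb between 1500 and 2000 bp.

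The band held about as large a share of the summits as of the genome, with 23.2% of all summits (exact Clopper-Pearson 95% interval over peaks, 21.8 to 24.6%) in 24.2% of the bases of the 6 chromosome arms. The zone within 500 bp of a TSS has 13.6% of the bases, and the zone beyond 2000 bp has 62.3%. Intervals here and below cover counting error over peaks only, since peaks of the same embryos are not replicates.

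Within the band, summits were sparser at larger distances. There were 370 between 500 and 1000 bp, or 27.5 per Mb of sequence at that distance, 249 between 1000 and 1500 bp (23.8 per Mb) and 174 between 1500 and 2000 bp (20.6 per Mb). Within 500 bp the density was 88.5 per Mb, and between 2000 and 2500 bp it was 15.4 per Mb, so the band lay between these levels. Farther out the density did not keep falling, with 18.4 per Mb between 3501 and 4000 bp and 19.3 per Mb between 4001 and 4500 bp. The strength of the band peaks did not follow their density: their median signal, the peak caller's own strength value, was 214, 214 and 199 in the 3 steps from near to far.

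The near edge was asymmetric. Between 500 and 1000 bp the density was 33.6 per Mb upstream of the TSS and 23.4 per Mb downstream, and between 500 and 600 bp it was 53.3 per Mb upstream and 22.4 per Mb downstream. Beyond 1000 bp the sides were close, with 23.2 per Mb upstream and 24.2 per Mb downstream between 1000 and 1500 bp. The higher upstream density was thus found in the stretch of the band that adjoins the promoter zone. In that zone the density was 147 per Mb upstream and 40 per Mb downstream.

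Of all band summits, 346 (43.6%, interval 40.1 to 47.2%) lay upstream of their nearest TSS and 447 downstream. Upstream bases made up 39.3% of the band. Weak peaks, meaning those of the pooled list that overlap no thresholded peak, gave a like share: 43.2% of the 6669 with a summit in the band lay upstream.

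The limits of the band cut through a continuum. Just inside the near limit were summits near lncRNA:CR44517 (signal 158), 1 bp past it, and 502 bp from CG42671 (221.9), and just outside it were summits 497 bp from CG9184 (158.4) and 499 bp from tRNA:Ile-AAT-1-9 (318.6). Just inside the far limit were summits 1995 bp from CG12290 (265.6) and 1996 bp from be (257.3), and just outside it were summits 2012 bp from CG4218 (467.3) and 2013 bp from Teh1 (219.4).

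Band summits lay in introns and between genes, and almost never in protein-coding sequence. Introns held 556 (70.1%, interval 66.8 to 73.3%), against 58.3% of weak band peaks and 35.3% of the bases in the band. A further 170 (21.4%) were intergenic, against 22.8% of the bases. Coding sequence makes up 29.7% of the bases in the band and 6.22% of weak band peaks had their summit there, but 1 band summit did (0.126%, interval 0.00319 to 0.701%). The remainder were 27 in exons of non-coding transcripts, 20 in 5′ UTRs and 19 in 3′ UTRs, the last class holding 2.4% of band summits and 7.74% of band bases. This distribution was not particular to the band. Of the summits beyond 2000 bp, 74.1% were in introns, 23.4% were intergenic and 0.293% were in coding sequence.

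**Figure D2:**
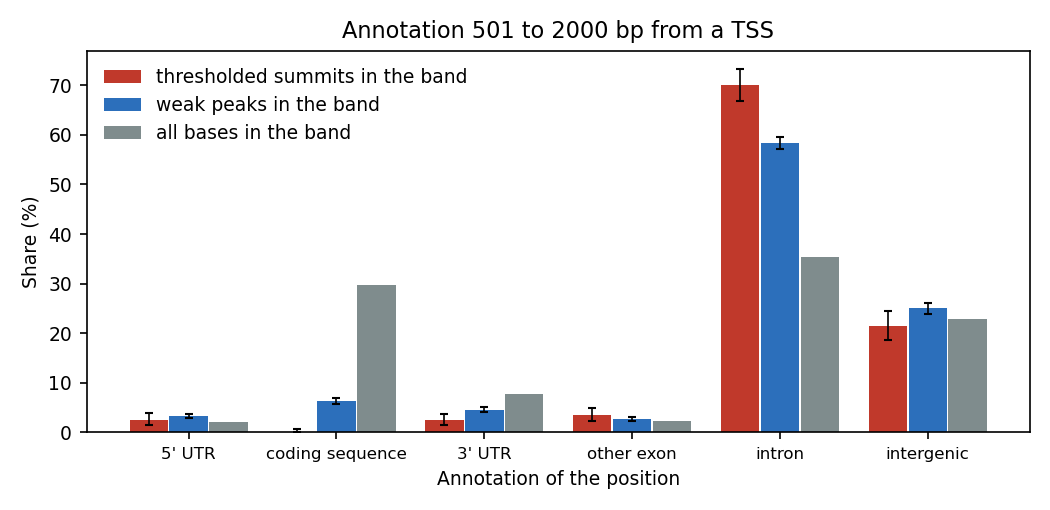
Share (%) of band summits, of weak band peaks and of band bases in each annotation class, with exact 95% binomial intervals on the counted peaks. Introns hold 70.1% of band summits and 35.3% of band bases, and coding sequence holds 0.126% of band summits and 29.7% of band bases.

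Downstream of the TSS, introns were even more prominent. No summit of the 447 downstream of their TSS lay in coding sequence (upper limit of the interval 0.822%), while coding sequence made up 38.6% of the downstream bases. Introns took 357 of them (79.9%), against 37.5% of the downstream bases. Upstream, introns took 199 of 346 (57.5%, against 31.9% of the bases) and intergenic sequence 129 (37.3%, against 41.8%).

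Most downstream intronic summits were in the first intron. Of the 357, 340 were inside a transcript that starts at the nearest TSS, and 310 of these (91.2%, interval 87.6 to 94.0%) were in its first intron. For scale, of 61634 intronic windows tiled across the downstream band by the same rule, 47045 (76.3%) were in the first intron. The upstream intronic summits were also mostly within the gene they were assigned to: in 136 of 199 (68.3%) another transcript of the same gene starts farther out and runs across the summit. The nearest TSS was the outermost one of its gene for 60.7% of band summits, against 72.9% of summits within 500 bp and 68.3% of those beyond 2000 bp.

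Band peaks were spread over the whole range of strengths in the list. Their signal had a median of 210 (quartiles 171 and 301, range 141 to 2066), against 214 within 500 bp and 194 beyond 2000 bp. Of the strongest 685 peaks, 150 were band summits (21.9%, interval 18.9 to 25.2%), against 23.2% of the whole list. Among the 100 strongest peaks of the whole list, 24 were band summits, 63 lay within 500 bp of a TSS and 13 beyond 2000 bp.

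The strongest of them, at signal 2066 and rank 3 of the list, lay in an intron of ush, 1401 bp upstream of cbt. The gene cbt encodes the zinc finger transcription factor Cabut, and ush encodes a cofactor of GATA factors. In the separate lists of the replicates this peak had signals of 1293 in replicate 1 and 769 in replicate 2, ranks 4 and 2. The replicate lists have different scales, so ranks rather than signals compare them. A second, weaker band summit lay 822 bp downstream of the cbt TSS (signal 201.02), and the strongest promoter summit of cbt had a signal of 663.

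The next had signal 2049 and lay in an intron of CG11050, 1032 bp downstream of a TSS. Its replicate signals were 1294 in replicate 1 and 751 in replicate 2 (ranks 3 and 5), against 154 for its promoter summit. The next strongest, at 1801, was in an exon of the non-coding gene lncRNA:Vinr, 542 bp upstream of lncRNA:CR44619.

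Trl, which encodes GAGA factor, a protein that binds GA repeats and keeps chromatin open, came after these. Its summit was 1535 bp downstream of a Trl TSS in an intron and had a signal of 1589, with 967 in replicate 1 and 625 in replicate 2 (ranks 19 and 13). The promoter summit of Trl reached 236. Trl had 2 further band summits, at signals 264 and 166, and so 3 in all along its gene.

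Other named regulators among the 25 strongest were Lk6, a kinase that acts on the translation factor eIF4E (1396), HmgZ, a high-mobility-group chromatin protein (1190), chif, the fly relative of the replication kinase subunit Dbf4 (1164), and NFAT, a transcription factor related to the Rel family (1080). Lower in the same set were for, a cGMP-dependent protein kinase (993), DNAlig3, a DNA ligase (924), Dok, an adaptor downstream of tyrosine kinases (884), wde, a partner of a histone H3K9 methyltransferase (883), simj, a subunit of the NuRD complex (854), and jp, a junctophilin (850). The signal in the list of replicate 1 and of replicate 2 was 832 and 574 for Lk6, 683 and 507 for HmgZ, 710 and 443 for chif, and 538 and 322 for simj. Each of these 4 was thus high in both.

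The remainder of the 25 lay near protein-coding genes without a role given here or near non-coding genes. They were CG32772 (1473), CG31635 (1187), CG9663 (1157), Reph (1127), CG9837 (1000), CG3726 (819), lncRNA:CR45643 with 2 (1116 and 856), lncRNA:CR46035 in an exon within osa (1019), tRNA:Lys-TTT-1-1 in an intron of Btk (944) and lncRNA:CR44810 (912). All 25 ranked 107 or better in the list of replicate 1 and 133 or better in that of replicate 2. Introns held 19 of the 25, 12 were upstream of their TSS, and 13 belonged to a gene that also had a promoter summit.

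Among the classes, 5′ UTR peaks had the lowest signals. Median signals were 214 for intergenic summits, 211 for introns, 222 for other exons, 198 for 3′ UTRs and 173 for 5′ UTRs. The strongest in a 5′ UTR were at CAP (276 and 241), Pdp1 (270), otk (262) and cic (222). Pdp1 is a PAR-domain transcription factor of the circadian clock, and cic encodes Capicua, a repressor relieved by EGFR signalling.

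In 3′ UTRs the strongest lay near CG13334 (400), lncRNA:CR46085 (367, in CG5984), CG7872 (308), scf (290) and CG33307 (265). The only coding summit was near asRNA:CR46005 in l(3)mbn (217). In exons of non-coding transcripts, the strongest after lncRNA:CR44619 and lncRNA:CR46035 were near lncRNA:CR44366 (609), lncRNA:CR45793 (326) and lncRNA:CR44628 (307). Introns of a gene other than the one with the nearest TSS held, beside cbt and tRNA:Lys-TTT-1-1, strong summits near lncRNA:CR43287 in CHES-1-like (775), CG46460 in ImpL2 (716) and FBtr0445485_df_nrg in Tis11 (666). The strongest intergenic ones were the summit of lncRNA:CR45643 at 1116, that of DNAlig3 (924), another of lncRNA:CR45643 (856), jp (850) and ph-d (764).

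Nearly all band summits were found in the lists of both replicates. A peak of both replicate lists covered 784 of the 793 (98.9%, interval 97.9 to 99.5%), and over all thresholded peaks the percentage was 98.8. The thresholded list was itself made by asking for consistency between replicates, so high overlap follows in part from how the list was made. Both replicate lists are long: asking instead for a rank among the strongest 3421 of each left 600 band summits (75.7%), against 1883 of the 2628 other summits (71.7%).

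**Figure D3:**
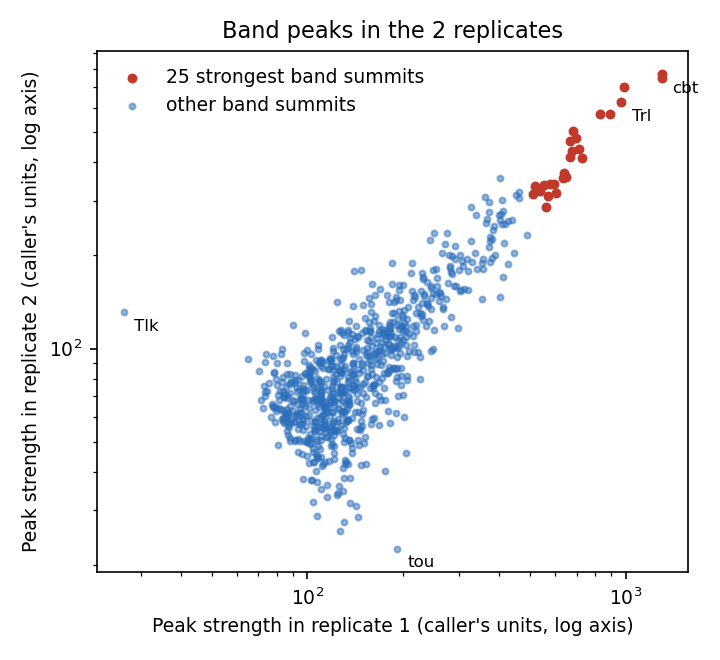
Signal in the list of replicate 1 (x axis) and of replicate 2 (y axis), both on log scales, for the 784 band summits in both lists. The signal is that of the strongest peak of the list that spans the summit. The 25 strongest band summits sit at the upper right, and the named Tlk and tou summits lie farthest from the rest.

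Over the 784 band summits in both lists, Spearman's rho between the replicate signals was 0.709 and Pearson's r of their log2 values was 0.821. For summits within 500 bp the rho was 0.749, and beyond 2000 bp it was 0.645. These are correlations over peaks of a single pair of libraries, so they describe the lists only. The signal of band summits in the list of replicate 1 had a median of 135 (26.5 to 1294) and in that of replicate 2 a median of 81.8 (22.5 to 769).

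A few band summits lay in a peak of only 1 replicate list. In all, 7 were missing from the list of replicate 2, 2 were missing from that of replicate 1, and 0 were missing from both. Missing here means that no peak of the list spans the summit, so a peak shifted to 1 side also counts as missing. It does not show that the replicate had no signal there. The strongest of the missing were Dhc64C, the cytoplasmic dynein heavy chain (signal 439, rank 436 in replicate 1, no covering peak in replicate 2), lncRNA:CR32660 (391.6), the NFAT summit 912 bp upstream (324), tna (319, rank 567 in replicate 2, no covering peak in replicate 1) and Tab2 (250).

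The largest disagreements in the rank of the covering peak were at Tlk, tou, CG15071, CG2991 and asRNA:CR45132. The Tlk summit 1672 bp downstream ranked 23177 in replicate 1 and 698 in replicate 2, with signals of 26.5 and 131. The tou summit ranked 854 in replicate 1 and 15829 in replicate 2, with signals of 191 and 22.5. In the thresholded list the Tlk summit had a signal of 315 and the tou summit 358. A replicate value is that of the strongest peak spanning the summit, which can be a neighbour of the peak itself. Whether that holds at Tlk and tou was not tested, so their ranks do not show a difference in binding. For the other 3 the difference of log2 ranks, replicate 1 minus replicate 2, was -2.91, -2.80 and -2.72, so replicate 1 ranked them higher.

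Band summits often came with another summit nearby. Another thresholded summit lay within 1 kb of 156 of them (19.7%, interval 17.0 to 22.6%), against 11.5% of summits within 500 bp of a TSS (9.95 to 13.1%) and 12.2% of those beyond 2000 bp (10.3 to 14.4%). The neighbour lay within 500 bp of a TSS for 63, in the band for 81 and beyond 2000 bp for 16, with some summits counted in more than 1 class. The median distance to the next summit was 3132 bp for band summits, 6681 bp for those within 500 bp and 4560 bp for those beyond. Some neighbouring summits shared a single broad peak in a replicate list, namely 4 band summits in replicate 1 and 2 in replicate 2, so such pairs are not separate measurements there.

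The 793 summits had their nearest TSS in 685 genes. Of these, 595 had 1 band summit, 75 had 2, 12 had 3 and 3 had 4. In 13 cases TSSs of more than 1 gene tied, and the tie was settled by a fixed rule. The nearest TSS was that of a protein-coding gene for 666 band summits (84.0%), of a non-coding RNA gene for 118, of a tRNA gene for 5 and of a snoRNA gene for 4.

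The 3 genes with 4 band summits were NFAT, CG9837 and Tlk. At NFAT the signals were 1080, 374, 324 and 249, in introns on both sides of its TSSs. At CG9837 they were 1000, 648, 231 and 168, with the summit at 231 in the 3′ UTR. At Tlk, which encodes the Tousled-like kinase, they were 315, 271, 209 and 200, so this gene had several summits of middling strength and none that stood out. Among the genes with 3, Trl had 1589, 264 and 166, lncRNA:CR45643 had 1116, 856 and 324, and Diap1, which encodes an inhibitor of apoptosis, had 692, 217 and 161.

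Of 13945 protein-coding genes, 572 were the nearest to a band summit, a percentage of 4.1, and 1879, a percentage of 13.5, had a summit within 500 bp of one of their TSSs. The overlap was 196 genes, which is 34.3% of the first set and 10.4% of the second. Seen from the summits, 261 of 793 (32.9%, interval 29.6 to 36.3%) had a nearest gene with a promoter summit too, against 317 of the 1023 summits beyond 2000 bp (31.0%). With only the outermost TSS of each gene counted, the share of such band summits was 19.5%.

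Where a gene had both, either could be the stronger. The band summit exceeded the strongest promoter summit of its gene in 123 of 261 cases (47.1%). At Lk6 the signals were 1396 for the band summit and 196 for the promoter, at HmgZ 1190 and 146, at chif 1164 and 150, and at simj 854 and 206. These examples are among the 25 strongest band summits, so a high band signal was part of their choice. The opposite order was seen at the second cbt summit, with 201.02 for the band summit and 663 for the promoter. It was also seen at px, with 243 and 1913, and at Tina-1, with 232 and 1273.

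The genes that owned band summits were long and had several starts. Protein-coding genes nearest to a band summit had a median length of 10459 bp and 2 TSSs, and 63.8% of them had 2 TSSs or more. All other protein-coding genes had a median length of 2080 bp and 1 TSS, and 24.9% had 2 or more. A longer gene with more starts has more sequence in the band, so gene counts here and below also measure gene structure, and the part of length in them was not tested.

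**Figure D4:**
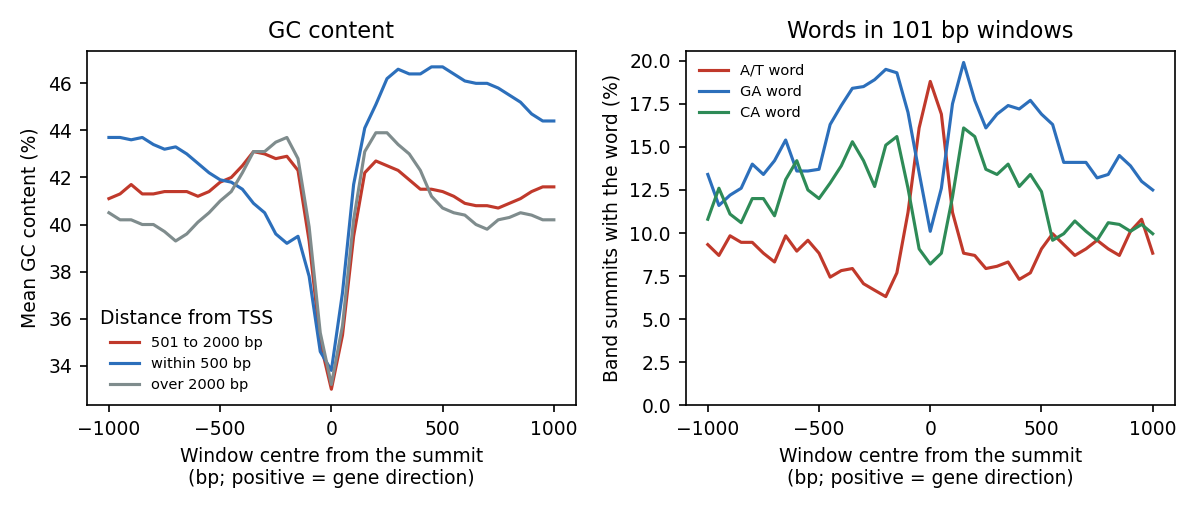
Left, mean GC content (%) of windows reaching 50 bp to either side, against the distance of the window centre from the summit in bp (positive in the direction of transcription of the gene with the nearest TSS), for the 3 distance zones. Right, share (%) of band summits whose window holds AATATT (A/T word), GAGAG (GA word) or CACACA (CA word). The A/T word peaks at the summit (18.8%), where the GA word is at 10.1%, against 19.5% 200 bp before it and 19.9% 150 bp after it.

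The summits sat in a narrow trough of GC content. In the window from 50 bp before to 50 bp after each band summit the median GC content was 32.7% (quartiles 26.7 and 38.6%), against 42.6% in windows of equal size 300 bp to either side. In 602 of 793 cases (75.9%, interval 72.8 to 78.9%) the summit had less GC than the mean of its own flanks. Weak band peaks had a median of 39.6%, as did all windows tiled over the introns and intergenic sequence of the band. Summits of the other zones had a like trough, with a median of 31.7% within 500 bp and 32.7% beyond 2000 bp.

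A/T runs were dense at band summits. Runs of at least 6 A or T, as in the cbt and Dok sequences above, covered 26.3% of the bases around band summits and 14.6% of the bases in their flanks. Weak band peaks had 17.5% and windows tiled over the band 14.1%. Summits of the other zones were like those of the band, with 27.5% within 500 bp and 26.2% beyond 2000 bp. Such a run was present in 95.3% of the windows around band summits. It was also in 77.8% of flank windows, 82.8% of weak band peaks and 70.2% of windows tiled over the band. Within 500 bp of a TSS such a run was in 91.4% of summit windows, and beyond 2000 bp in 94.8%. The 81 bp printed for jp hold none, but runs begin in the 10 bp next to them, inside the wider window used for these counts. Most of the 25 strongest had a GC content below the median of 32.7%, with 19.8% at tRNA:Lys-TTT-1-1 in Btk, 22.8% at simj and 24.8% at CG11050, but lncRNA:CR45643 reached 46.5% and jp and wde 43.6% each.

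The 6-letter words that gained most at summits were all A/T. TAAATA was in 32.8% of band summit windows and 13.4% of flank windows, AAATAT in 34.4% and 15.9%, and ATAAAT in 31.1% and 15.7%, counting both strands. Summits of the other zones had like shares. TAAATA was in 32.7% within 500 bp and 31.5% beyond 2000 bp, AAATAT in 35.3% and 37.2%, and ATAAAT in 29.35% and 29.23%. These words overlap one another and the runs, so they are not separate features. The largest difference in the other direction was that of GCAACA, in 5.42% of summit windows and 11.5% of flanks.

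A set of 10 known words was searched on both strands as a description. A palindromic word was counted once, and the A/T words overlap the A/T runs. AATATT, an A/T word related to the SALL4 preference in mammals, was in 149 of 793 windows (18.8%, interval 16.1 to 21.7%), 7.57% of flanks, 11.4% of weak band peaks and 8.02% of windows tiled over the band. Of windows tiled over only the introns and intergenic sequence of the band, 10.5% held it. Among summits within 500 bp it was in 17.1% and beyond 2000 bp in 23.1%. The simj sequence above holds it, while those of cbt, CG11050, Trl and Dok do not.

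GA and CA repeats went the other way, low at the summit and high beside it. GAGAG, the word of GAGA factor, was in 10.1% of band summit windows (interval 8.08 to 12.4%) and in 17.7% of flanks, against 11.2% of windows tiled over the band. CACACA was in 8.20% of band summit windows, 13.8% of flanks and 7.45% of tiled windows. With only introns and intergenic sequence tiled, 10.8% of windows held GAGAG and 8.97% held CACACA. The flanks were thus the windows that stood above the tiled level, as in the simj flank shown above. Summits of the other zones had a like dip. GAGAG was in 10.2% of summit windows within 500 bp and 9.19% beyond 2000 bp, and CACACA in 6.79% and 7.53%. In windows centred 150 bp after those summits, GAGAG was in 22.4% and 16.4%, and CACACA in 13.6% and 14.9%. GAGAG was in 8.30% of the strongest tertile of band summits, 7.58% of the middle tertile and 14.4% of the weakest tertile, and CACACA in 5.28%, 7.20% and 12.1%. For both words the intervals of the strongest and weakest tertiles overlap, which by itself does not show that the shares are alike. They were 5.28 to 12.3% and 10.4 to 19.2% for GAGAG, and 2.92 to 8.71% and 8.44 to 16.7% for CACACA. A trend with strength was not tested.

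Words of core promoters were not found within 50 bp of band summits. TATCGATA, the word of DREF, was in 0 of 793 windows (upper limit 0.464%) and in 1.87% of windows within 500 bp of a TSS. GGTCACACT, the word of M1BP, was in 0 of 793 (upper limit 0.464%) and in 1.37% within 500 bp. Over windows tiled across the band, 0.176% held the first and 0.0371% the second, so both words are rare in the band as a whole. Beyond 2000 bp they were in 0.293% and 0.0978% of summit windows, so their rarity was not particular to the band. Within 100 bp of band summits TATCGATA was in 0.126% of windows.

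Of the other 5 words, TTTATGAC, a Hox-type word, was in 1.51% of band summit windows, 0.631% of flanks and 0.510% of tiled windows. The E-box CACGTG was in 0.126% of band summit windows, 1.64% of flanks and 1.23% of tiled windows. The E-box CAGCTG was in 2.90%, 4.60% and 4.73%, in the same order. CAGGTA, of the Zelda type, was in 1.89%, 2.59% and 2.46%, and TGACTCA, of the AP-1 type, in 0.883%, 1.07% and 0.850%. Both E-boxes were thus rarer at the A/T-rich summits than in their flanks, and the AP-1 word was close to its tiled level. With only introns and intergenic sequence tiled, the shares were 0.716% for TTTATGAC, 1.15% for CACGTG and 3.64% for CAGCTG. For CAGGTA and TGACTCA they were 2.16% and 1.06%.

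Lists of developmental and cell-biological genes were then read against the 4.1% of protein-coding genes that own a band summit. All 21 lists are given, and between them 63 genes owned band summits. Lists share members (sgg, grh, bin, bowl and mbc are each in more than 1), and most lists hold genes far longer than the typical fly gene.

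**Figure D5:**
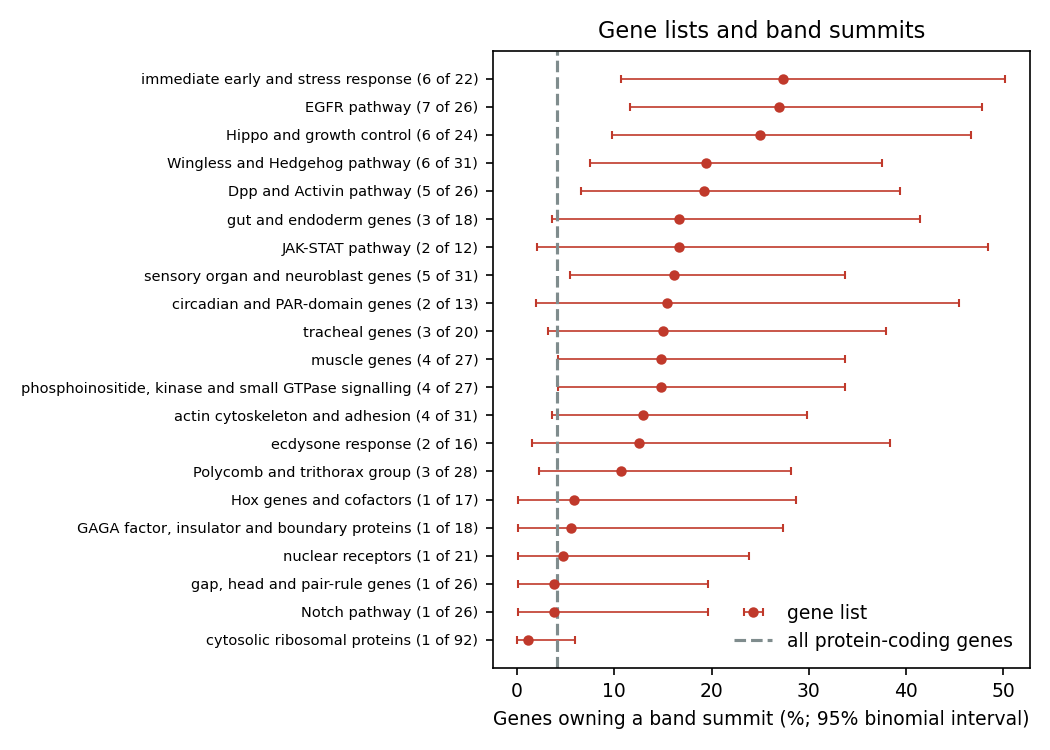
Share (%) of the genes of each list that are nearest to a band summit. Points are shares, bars exact 95% binomial intervals, and the dashed line is the 4.1% of all protein-coding genes. Shares run from 27.3% of immediate early and stress genes to 1.09% of cytosolic ribosomal protein genes.

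Shares differed between lists, but the intervals are wide and mostly overlap, and no difference between lists was tested. Where a gene had more than 1 band summit, the signal given is that of the strongest unless said otherwise. Immediate early and stress genes had 6 of 22 (27.3%, interval 10.7 to 50.2%, median gene length 17391 bp). They were cbt, the stress factor Atf3 (388), the hypoxia factor sima (338), Mitf (260), CrebB (211) and kay, the fly Fos (155). The EGFR pathway had 7 of 26 (26.9%, 11.6 to 47.8%, 11340 bp). They ran from negative regulators, RasGAP1 (660), the ETS repressor aop (525) and sty (166), through S, which carries the ligand Spitz (411), and the kinase Raf (381) to edl, an antagonist of aop (637), and cic (222).

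At the strongest of these genes both replicates placed the summit high. RasGAP1 had signals of 373 in replicate 1 and 299 in replicate 2 (ranks 211 and 122), edl 386 and 248 (191 and 181), and aop 355 and 181 (242 and 358). RasGAP1 and aop each had a second intergenic band summit, at 325 and 288. Of the 2 band summits of sty, the one at 166 lay in no peak of the list of replicate 1. The one at 148 was in both lists (106 in replicate 1 and 40.3 in replicate 2).

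The Hippo and growth list had 6 of 24 (25%, 9.77 to 46.7%), namely Diap1, CycE (349), the cadherin ds (323), InR (297), crb (200) and mats (157). The Wingless and Hedgehog list had 6 of 31 (19.4%, 7.45 to 37.5%), most of them receptors: fz (493), fz2 (181), arr (173) and boi (173), with the ligand Wnt5 (189) and the kinase sgg (149). The Dpp and Activin list had 5 of 26 (19.2%, 6.55 to 39.4%), namely the zinc finger cofactor shn (516), the Smad Mad (504), the repressor brk (391), the receptor tkv (158) and the inhibitor Dad (152). The JAK-STAT list had 2 of 12 (16.7%), chinmo (633) and Stat92E (299).

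Among the tissue lists, sensory organ and neuroblast genes had 5 of 31 (16.1%, 5.45 to 33.7%), led by brat, a translational repressor of neuroblast fate (669), then lola (249), nub (230), grh (166) and fru (163). Gut genes had 3 of 18 (16.7%: bin 258, grn 216, bowl 169), tracheal genes 3 of 20 (15.0%: rib 310, apt 173, grh) and muscle genes 4 of 27 (14.8%: zfh1 410, bin, mbc 227, Tm1 150). The intervals of the gut and tracheal lists include 4.1%, as do those of the JAK-STAT list and of the actin, circadian, ecdysone and Polycomb lists below. The lower limit was 4.19% for the muscle list and for the kinase and small GTPase list below. Lists were chosen with earlier results of these data known and gene length was not accounted for, so an interval above 4.1% is not a test.

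Kinase and small GTPase genes had 4 of 27 (14.8%: Rab11 326, Rgl 233, Src64B 187, sgg), actin and adhesion genes 4 of 31 (12.9%: Moe 485, rhea 309, tsr 296, mbc), circadian genes 2 of 13 (15.4%: dco 285, Pdp1) and ecdysone response genes 2 of 16 (12.5%: tai 201.3, Kr-h1 150). The Polycomb and trithorax list had 3 of 28 (10.7%): ph-d (764 and 344), ph-p (451) and trx (143). The genes ph-d and ph-p are near-identical tandem copies, so reads could be split between them and their values are uncertain. Both ph-d summits fell in 1 peak of replicate 1 (signal 403).

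The lists with 1 gene each had shares of 5.88% or less. Their intervals all include 4.1%, also that of the cytosolic ribosomal proteins (0.0275 to 5.91%). Hox genes and cofactors had 1 of 17 (5.88%: Abd-B 185), nuclear receptors 1 of 21 (4.76%: Hr4 209), gap, head and pair-rule genes 1 of 26 (3.85%: bowl) and the Notch pathway 1 of 26 (3.85%: neur, an E3 ubiquitin ligase, 405). GAGA factor, insulator and boundary proteins had 1 of 18, Trl itself (5.56%), while 9 of the 18 had a summit within 500 bp of a TSS. Of the cytosolic ribosomal proteins, short genes with a median length of 1315 bp, 1 of 92 owned a band summit (1.09%: RpS23 348) and 65 had a promoter summit. Over all protein-coding genes the shares were 4.1% and 13.5%, so fewer band than promoter summits were not particular to these lists. The counts were 1 and 9 for the Notch pathway, 1 and 6 for nuclear receptors and 4 and 13 for actin and adhesion genes. Only the sensory organ and neuroblast list had the reverse order (5 and 4), and some lists had equal counts.

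By chromosome arm, 144 band summits lay on 2L, 140 on 2R, 164 on 3L, 185 on 3R, 158 on X and 2 on the small chromosome 4. The X held 19.9% of band summits, against 16.6% of all summits and 17.3% of the bases in the band.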

How the data were processed

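ChIP-seq peaks of Salm-GFP from 2 biological replicates (1 group) were analysed. Per the labels, chromatin was sonicated to 200 to 800 bp and coordinates are those of dm6. The authors deposited 4 peak lists: 1 per replicate, 1 of both pooled and the list thresholded by the irreproducible discovery rate (IDR). Each deposited peak has a signal, the peak caller's own strength, whose scale differs between lists, so lists were compared by rank. The deposited −log10 q-value sits at its ceiling for the thresholded peaks and was not used. Which aligner, peak caller and IDR cutoff made them is not given in the sources used here. Control reads were not analysed. Read totals were not given, so the depth per sample is unknown.

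Each summit was assigned to the nearest of 23581 annotated TSSs (Ensembl release 115, FlyBase 6.54, transposable elements not counted as genes), ties going to protein-coding genes and then by symbol. Classes were taken in the order of 5′ UTR, coding sequence, 3′ UTR, other exon, intron and intergenic. GC content and words were read within 50 bp of summits, in flanks centred 300 bp to either side, in 6669 weak band peaks and in tiled windows, from RefSeq's Release 6 genome. Of 470 listed gene symbols, 447 matched by symbol, 17 by synonym and 6 not at all. Of the band peaks, 58.8% are 390 bp wide and 60.5% have their summit at the central base or next to it, so many summits are coarse in position.

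With 1 group there was no test and no p-value; shares have exact 95% intervals for counting error only. Genes named are the 25 strongest summits, the 5 strongest per class, the 6 genes with most summits, the strongest of each list, those at the limits of the band and those that differ most between replicates. Members and lists were chosen with earlier results of these data known. Alternatives were tried for the TSS set, the band, the list, the summit position, the window, the replicate used and the overlap. The assignment and the word search recovered 300 of 300 simulated positions and 200 of 200 planted words. The work was done in Python 3.11.15, with pandas 2.3.3 and numpy 2.4.6 for tables, scipy 1.17.1 for intervals and matplotlib 3.10.9 for figures.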

Additional observations from a re-analysis of the deposited data

How the results depend on the processing

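The band summits numbered 788 to 798 when either replicate was left out, with the strongest 3421 peaks of the other in place of the thresholded list, and the share of all summits in the band stayed at 23.0 to 23.3%. In the same runs the upstream share was 42.6 to 43.4%, the intron share 69.7 to 69.8%, the share with a promoter summit 33.2 to 33.8% and the median GC content 31.7 to 32.7%. With 1 TSS per gene, 21.6% of summits fell in the band, 34.6% of them upstream, 64.4% in introns and 19.5% with a promoter summit of the same gene. With the band narrowed to 500 to 1000 bp there were 370 summits (10.8%), 49.2% of them upstream. The strongest 1710 peaks held 412 band summits, fewer by construction, and 22.3% had a promoter summit of the same gene. Leaving out summits near a stronger one gave 26.3% for that share, and in each of these alternatives fewer TSSs or fewer summits were counted. Peaks of both replicates covered 97.4% of the band summits when a peak had to be covered by 50%, and 75.7% when the strongest 3421 peaks of each list were used. Counting transposable elements as genes, an alternative chosen after seeing the data, gave 820 band summits. Within 100 bp of the summit AATATT was in 31.3%, GAGAG in 23.1% and CACACA in 17.3% of windows. No paired analysis was possible because both replicates belong to 1 group. Depth is unknown, so a region without a peak cannot be read as unbound, and in whole embryos few cells bound and weak binding cannot be told apart.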
